A study of Homo sapiens with 6 samples.

Results

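Interferon-stimulated genes were followed as a module of 49 genes, chosen by symbol from the 46427 genes of the expression table, and 48 of them were among the 16966 genes with enough counts to be tested. They were divided into 43 type I effectors, whose products act against viruses or regulate that action, 3 transcription factor genes (STAT2, IRF1 and IRF9) and 3 guanylate-binding protein (GBP) genes. A separate grouping held 11 early responders, 16 late responders and 22 genes with no timing class, drawn from general knowledge of the interferon response, since the series has no time course. MDA-MB-231, a metastatic human breast cancer cell line, was transfected with control-siRNA (3 cell preparations) or with TAZ-siRNA, directed at the TAZ gene WWTR1 (3 preparations). Both groups carry a wild-type label, come from the same line and received siRNA. No untransfected or interferon-treated cells were among the 6 libraries, so all values compare one siRNA with another. The mRNA libraries were strand-specific and were read as 100-base paired ends, and the question put to them was which transcripts change when TAZ is reduced.

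Type I interferons bind the IFNAR1 and IFNAR2 receptor chains and activate the kinases JAK1 and TYK2. STAT2 and IRF9 then take part in ISGF3, a complex that binds the interferon-stimulated response element (ISRE) in the promoters of antiviral genes, while the response to interferon-gamma runs largely through the gamma-activated site (GAS). IRF3 and IRF1 can use ISRE-like sites as well, so some antiviral genes can be switched on by nucleic acid sensing without secreted interferon.

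WWTR1 was at 192, 189.7 and 190.0 CPM with control-siRNA and 17.3, 17.0 and 15.1 CPM with TAZ-siRNA, where CPM is the count scaled to a common normalized library size, which left 8.64% of the control level. The groups did not overlap, and the exact 2-sided permutation test gave p = 0.1, the smallest value 3 libraries against 3 allow. Total counts ranged from 48307548 to 71749634 per library. The epithelial keratin genes KRT8 and KRT18 and the mesenchymal marker VIM were abundant (mean of all libraries 602, 827 and 3785 TPM, the authors' level per length), while the epithelial markers CDH1 and EPCAM were low (0.0989 and 1.62 TPM). Among markers of cells that could have been the source of interferon-stimulated RNA, PTPRC and CD3E were listed at 0 in every library, and CD14, LYZ and PECAM1 were low and did not pass the test, at 0.55 (adjusted p = 0.14), 0.68 (adjusted p = 0.12) and 0.27 (adjusted p = 0.16 by edgeR) on the log2 scale. For CD14 and LYZ every TAZ-siRNA library lay above every control-siRNA library. The epithelial keratin gene KRT19 rose by 0.37 (adjusted p = 0.0012 by edgeR) on the log2 scale, without overlap. The fibroblast marker COL1A1 rose by 0.42 (adjusted p = 0.0070 by edgeR) on the log2 scale while DCN was listed at 0, and the part of these markers in the results was not tested.

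Most of the module was higher with TAZ-siRNA, by small amounts. Of the 48 members tested, 28 were higher and 2 lower, and 18 did not pass (quasi-likelihood test of edgeR, with a threshold of 0.05 for p adjusted by Benjamini-Hochberg over every gene tested). Over all genes tested, 22.1% were called in either direction, 11.9% as higher and 10.2% as lower. These are the shares to set beside each count of called members below. The median log2 fold change was 0.28 over the members against -0.0054 over all genes, and 43 members had a positive value and 5 a negative one. In bulk RNA, a change in RNA per cell cannot be told apart from a change in the number of cells that express a gene. In 32 members every TAZ-siRNA library lay above every control-siRNA library, in 3 every one lay below, and in 13 the groups overlapped. Of all 16966 genes, 3396 (20%) had all TAZ-siRNA libraries above, 3321 had all below, and in 10249 the groups overlapped. Of the 48 members, 5 changed by more than 1.5-fold: RSAD2, IFI44L, OAS2, IFI27 and BST2. Among all 16966 genes tested 1580 did so, a share of similar size. With each library left out in turn, 21 members (without control-siRNA replicate 2) to 31 members (without TAZ-siRNA replicate 3) were called higher, and 19 of the 30 called members passed in all 6 of these fits.

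**Figure D1:**
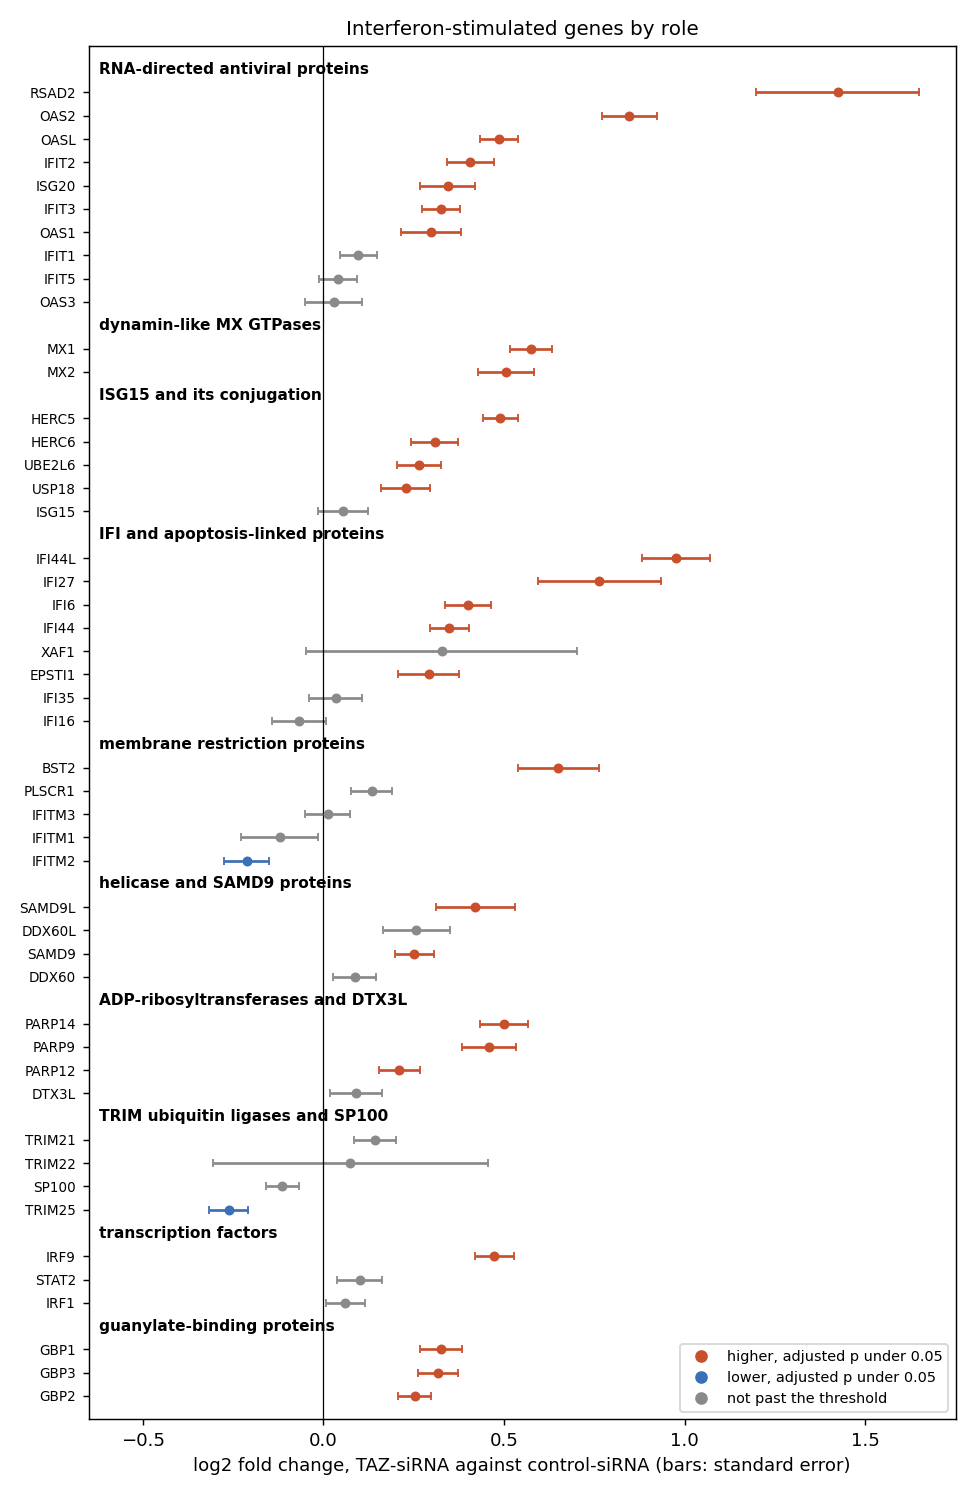
Log2 fold change of TAZ-siRNA against control-siRNA (horizontal axis) for the 48 members tested, arranged by role, with bars for the standard error (3 libraries a group). Of these, 28 lie to the right of 0 past the threshold, 2 (IFITM2 and TRIM25) to the left past it, and RSAD2 stands farthest out at 1.42.

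The type I effectors and the GBP genes had medians of similar size, and the transcription factor genes a smaller one. Among 42 type I effectors tested, 24 were higher and 2 lower, with log2 fold changes around a median of 0.28 and a range from -0.26 to 1.42. All 3 GBP genes were higher, between 0.25 and 0.33, with a median of 0.32. Of the STAT2, IRF1 and IRF9 genes, 1 was higher, and their median was 0.10. The average of each list, taken as mean log2 CPM minus the mean of the control-siRNA libraries, was 0.30, 0.30 and 0.28 in the TAZ-siRNA libraries for type I effectors. For the GBP genes these averages were 0.32, 0.35 and 0.22, and for the transcription factor genes 0.19, 0.27 and 0.17. No test was made between the lists, because genes are not replicates and the smaller lists hold 3 genes each.

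Early and late responders had almost the same median shift. Of the 10 early responders tested, 7 were higher and 0 lower, the median log2 fold change was 0.34 and values ran from 0.054 (ISG15) to 1.42 (RSAD2). Of the 16 late responders, 11 were higher and 0 lower, with a median of 0.34 and a range from -0.12 (IFITM1) to 0.98 (IFI44L). The averages in the 3 TAZ-siRNA libraries were 0.39, 0.36 and 0.42 for the early and 0.42, 0.40 and 0.36 for the late list, and these ranges overlapped. Of the 22 members with no timing class, 10 were higher and 2 lower, with a median of 0.18. Of the 5 members that changed by more than 1.5-fold, 4 were late responders and 1 was early. The eleventh early responder, CMPK2, a mitochondrial nucleotide kinase gene, was not tested because it had 0 counts in all 6 libraries.

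**Figure D2:**
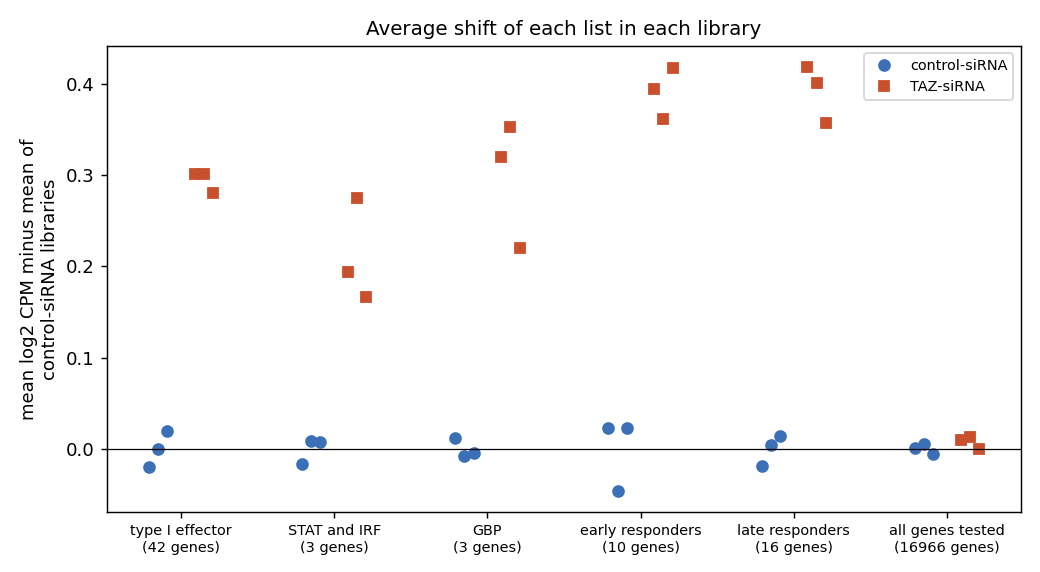
Mean log2 CPM of each list in each library minus the mean of the 3 control-siRNA libraries (vertical axis), with circles for control-siRNA and squares for TAZ-siRNA. The TAZ-siRNA libraries lie above all control-siRNA libraries for each of the 5 member lists, at 0.17 to 0.42, and near 0 for all genes tested.

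The ISRE, the element that ISGF3 binds, was looked for in the promoters of the members. RefSeq promoter sequences (GRCh38.p14, from 250 bases before to 50 after the start of the gene) were matched to 41 of the 49 members by symbol, and GBP2, IFIT2, IFITM2, MX2, OAS2, OASL, TRIM22 and USP18 had no entry. The ISRE core, spelled GAAANNGAAA and searched on both strands, was found in 26 of the 41 (63.4%) and in 996 of 27305 promoters overall (3.65%). The GAS core TTCNNNGAA was found in 12 of the 41 (29.3%) and in 2152 of 27305 overall (7.88%), and in BST2, EPSTI1, IFI27 and IFITM1 an ISRE core and a GAS core overlapped. A match describes letters and not a bound site.

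Windows around ISRE cores are given for 4 members that rose and 4 that did not pass the test, because the element was present in both. Each is written on the strand of its gene, 5′ to 3′, with capitals for 1 core in each window, and capitals that open with TTTC are the core read from the opposite strand. The windows of IFI27, BST2, ISG15, IFIT1 and IFITM3 hold a further core whose other bases are in lower case, and in BST2 and ISG15 it overlaps the one in capitals.
IFI44L, chr1:78620355-78620404 (forward strand): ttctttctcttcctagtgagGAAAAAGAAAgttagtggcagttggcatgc
IFI27, chr14:94110621-94110670 (forward strand): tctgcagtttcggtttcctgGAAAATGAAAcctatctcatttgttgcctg
BST2, chr19:17405725-17405774 (reverse strand): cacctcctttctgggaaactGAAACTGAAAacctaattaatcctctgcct
HERC5, chr4:88457025-88457074 (forward strand): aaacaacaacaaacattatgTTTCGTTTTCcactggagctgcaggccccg
ISG15, chr1:1013370-1013419 (forward strand): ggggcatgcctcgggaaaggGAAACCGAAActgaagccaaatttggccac
IFIT1, chr10:89392500-89392549 (forward strand): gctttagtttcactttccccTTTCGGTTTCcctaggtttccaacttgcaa
OAS3, chr12:112938311-112938360 (forward strand): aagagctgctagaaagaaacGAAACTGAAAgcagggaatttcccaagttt
IFITM3, chr11:320866-320915 (reverse strand): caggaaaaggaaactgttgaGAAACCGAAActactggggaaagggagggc

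The first 4 genes rose by 0.98, 0.76, 0.65 and 0.49 on the log2 scale, while ISG15, IFIT1, OAS3 and IFITM3 had log2 fold changes of 0.054, 0.10, 0.028 and 0.012. Of the 26 members with the core, 15 were higher, 0 were lower and 11 did not pass, and the median log2 fold change was 0.27. Of the 14 tested members whose window lacked it, 7 were higher and 1 was lower, with a median of 0.28. The members without it included RSAD2, IRF9, OAS1 and PARP9, all of which rose. Among tested members with a promoter entry, some rose and some did not pass, both with and without the core in this window. Those with no entry are not part of these counts: GBP2, IFIT2, MX2, OAS2, OASL and USP18 were higher, IFITM2 was lower and TRIM22 did not pass. Only the first listed start of each gene was searched, so a core at another start would have been missed.

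**Figure D3:**
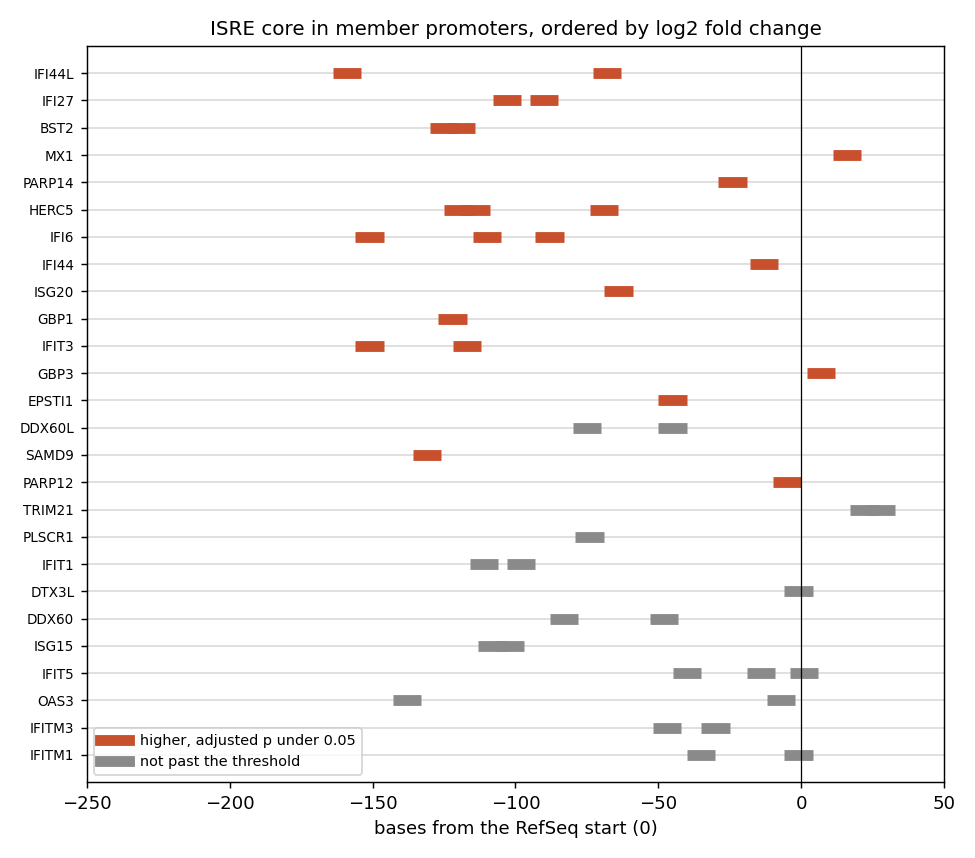
Position of each ISRE core (bars, in bases from the RefSeq start at 0, on the strand of the gene) in the 26 member promoters that hold it, ordered from the largest log2 fold change at the top. The 15 members that rose and the 11 that did not pass the threshold both carry cores, most of them before the start.

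Of the 10 genes tested whose products act on RNA or on virus replication, 7 were higher and 0 lower, and the median log2 fold change was 0.34. RSAD2 encodes viperin, a radical SAM enzyme that makes a chain-terminating nucleotide, and it was at 1.90, 1.04 and 1.34 CPM with control-siRNA and 4.33, 2.98 and 4.21 CPM with TAZ-siRNA. Its TAZ-siRNA libraries all lay above the control-siRNA libraries, and it had the largest change of the module (log2 fold change 1.42 ± 0.23 (SE, n = 3), adjusted p = 0.0019 by edgeR). At its locus (chr2:6865733-6898239, GRCh38) it overlaps CMPK2, which was listed at 0 throughout, although the pair is often induced together.

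OAS2, one of the oligoadenylate synthetases that activate RNase L on double-stranded RNA, was at 6.49, 6.59 and 6.73 CPM with control-siRNA and 12.1, 11.8 and 11.7 CPM with TAZ-siRNA. The groups were far apart relative to their spread (log2 fold change 0.85 ± 0.077 (SE, n = 3), adjusted p = 1.1e-04 by edgeR). Its neighbour OAS1 in the same cluster on chromosome 12 was at 15.4, 13.6 and 14.7 CPM with control-siRNA and 17.1, 19.7 and 16.9 CPM with TAZ-siRNA, a small rise without overlap (log2 fold change 0.30 ± 0.082 (SE, n = 3), adjusted p = 0.026 by edgeR). OAS3 was at 60.1, 58.8 and 57.0 CPM with control-siRNA and 61.6, 65.8 and 52.0 CPM with TAZ-siRNA, and its groups overlapped (log2 fold change 0.028 ± 0.078 (SE, n = 3), adjusted p = 0.83 by edgeR). The range of the TAZ-siRNA libraries of OAS3 enclosed that of the control-siRNA libraries. OASL, a synthetase-like protein without that enzyme activity, lies apart from the cluster and was at 93.0, 89.8 and 98.4 CPM with control-siRNA and 128, 129 and 137 CPM with TAZ-siRNA. It rose without overlap (log2 fold change 0.49 ± 0.052 (SE, n = 3), adjusted p = 2.4e-04 by edgeR). OAS1 was not past the threshold without control-siRNA replicate 2 or 3 or TAZ-siRNA replicate 1 or 2 (adjusted p from 0.052 to 0.12 by edgeR).

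The IFIT genes encode proteins that bind viral RNA, and 2 of the 4 members, all on chromosome 10, were higher. IFIT2 was at 204, 206 and 212 CPM with control-siRNA and 286, 289.7 and 248 CPM with TAZ-siRNA, and IFIT3 at 187, 178 and 187 CPM with control-siRNA and 229, 242 and 222 CPM with TAZ-siRNA. Both rose without overlap, with log2 differences of 0.41 (adjusted p = 0.0019) and 0.33 (adjusted p = 0.0019 by edgeR). IFIT1 was at 82.1, 88.1 and 89.1 CPM with control-siRNA and 93.5, 89.4 and 94.3 CPM with TAZ-siRNA, with the TAZ-siRNA libraries just above the others and a log2 difference of 0.10 (adjusted p = 0.20 by edgeR). IFIT5 overlapped between the groups, at 0.041 (adjusted p = 0.63 by edgeR). ISG20, an exonuclease gene, rose by 0.34 (adjusted p = 0.010), but it was not past the threshold without control-siRNA replicate 1 or 2 (adjusted p from 0.052 to 0.055 by edgeR).

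**Figure D4:**
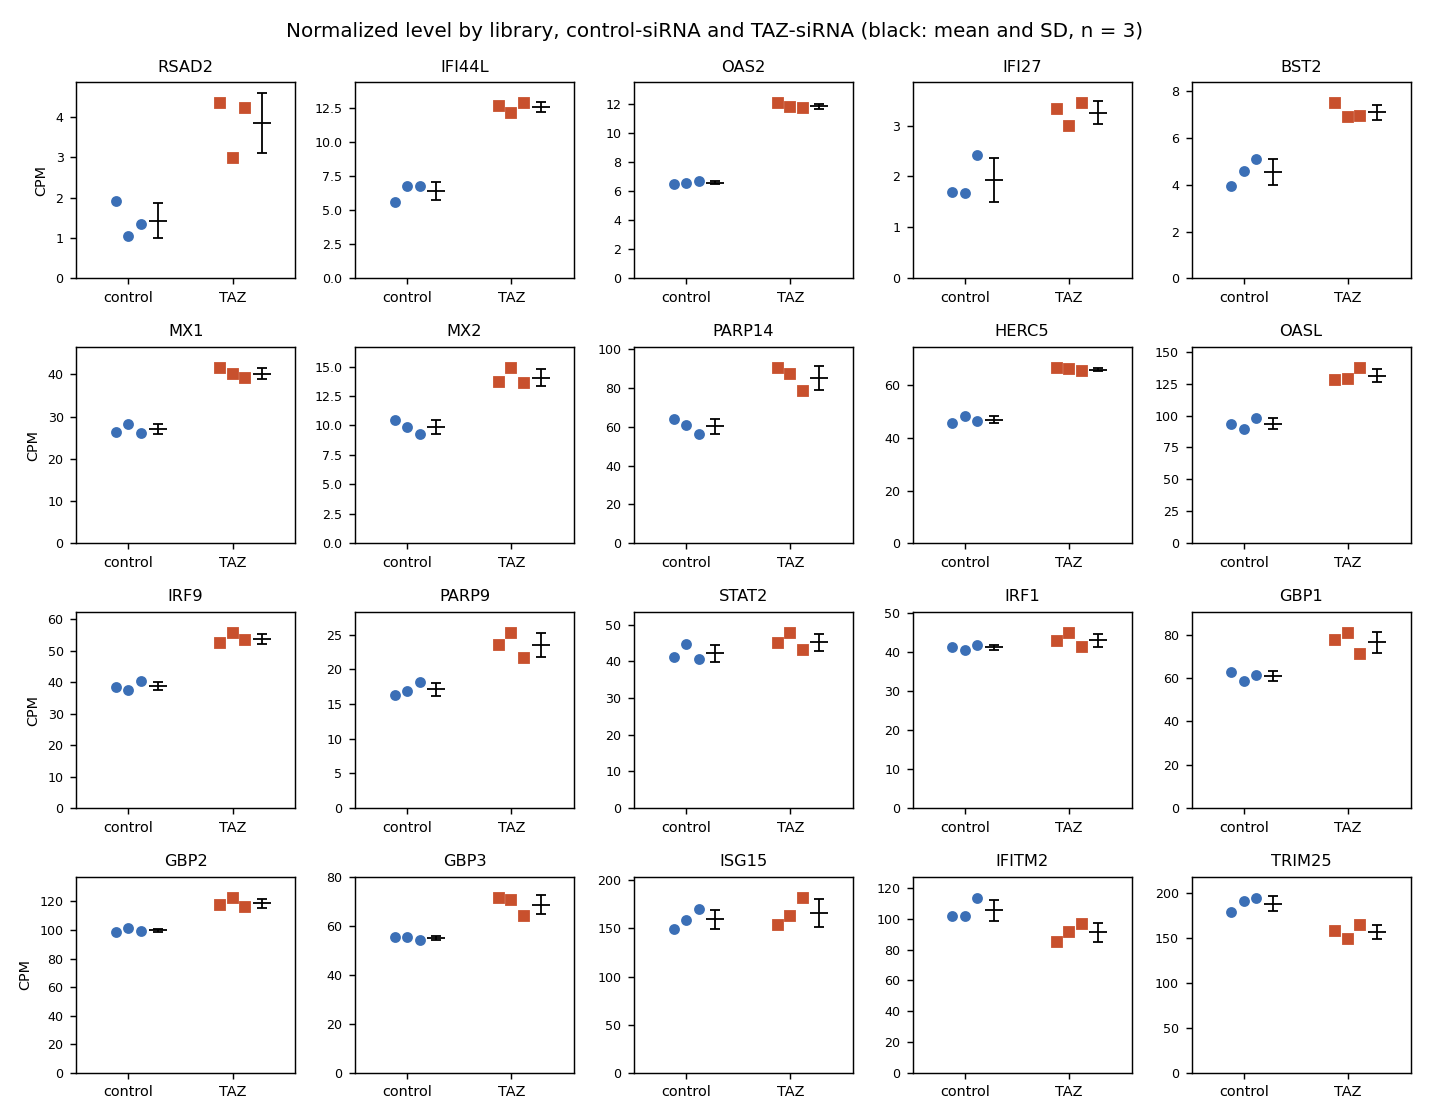
Normalized level (CPM, vertical axes from 0) in each control-siRNA (circles) and TAZ-siRNA (squares) library, with the mean and SD of 3 libraries in black, for the 12 members with the largest changes and 8 others. The groups stand clear of each other in RSAD2, IFI44L, OAS2 and IRF9 and overlap in STAT2, IRF1 and ISG15, while IFITM2 and TRIM25 are lower with TAZ-siRNA.

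Both MX genes, which encode dynamin-like GTPases that block incoming viruses, were higher. MX1 was at 26.5, 28.3 and 26.2 CPM with control-siRNA and 41.5, 40.1 and 39.0 CPM with TAZ-siRNA. MX2 was at 10.5, 9.87 and 9.31 CPM with control-siRNA and 13.7, 14.9 and 13.6 CPM with TAZ-siRNA. Neither overlapped between the groups, and the log2 fold changes were 0.57 (adjusted p = 1.8e-04) and 0.51 (adjusted p = 0.0017 by edgeR).

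Of the 5 membrane proteins, 1 was higher and 1 lower. BST2, or tetherin, which holds budding virions at the cell surface, was at 3.96, 4.60 and 5.09 CPM with control-siRNA and 7.49, 6.91 and 6.93 CPM with TAZ-siRNA, without overlap (log2 fold change 0.65 ± 0.11 (SE, n = 3), adjusted p = 0.0028 by edgeR). The IFITM genes, which encode small membrane proteins that hinder virus entry, stood apart from it. IFITM3 was the most abundant member per length, at 1104, 1121 and 1169 TPM with control-siRNA and 1162, 1199 and 1194 TPM with TAZ-siRNA, and its groups overlapped with a log2 difference in CPM of 0.012 (adjusted p = 0.92 by edgeR). IFITM2 was at 102, 101 and 113 CPM with control-siRNA and 84.9, 91.6 and 96.6 CPM with TAZ-siRNA, and was lower in all 3 TAZ-siRNA libraries (log2 fold change -0.21 ± 0.063 (SE, n = 3), adjusted p = 0.035 by edgeR). IFITM1 was at 9.84, 9.93 and 12.5 CPM with control-siRNA and 9.11, 10.2 and 10.3 CPM with TAZ-siRNA, with overlap and a log2 difference of -0.12 (adjusted p = 0.45 by edgeR). The coding sequences of IFITM2 and IFITM3 are 93.9% identical and those of IFITM1 and IFITM3 89.6%, so reads may have been divided among them and their separate values are uncertain. IFITM2 was not past the threshold without control-siRNA replicate 1, 2 or 3 or TAZ-siRNA replicate 1 or 2 (adjusted p from 0.070 to 0.15 by edgeR). PLSCR1, a phospholipid scramblase gene, was at a log2 difference of 0.13 (adjusted p = 0.12 by edgeR).

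The genes grouped with the ubiquitin-like modifier ISG15 (HERC5, HERC6, UBE2L6 and USP18) were higher, and the modifier itself did not pass the test. ISG15 was at 149.9, 159 and 169.8 CPM with control-siRNA and 153, 162 and 182 CPM with TAZ-siRNA, with overlap between the groups (log2 fold change 0.054 ± 0.069 (SE, n = 3), adjusted p = 0.62 by edgeR). HERC5, its main ligase, was at 45.9, 48.6 and 46.6 CPM with control-siRNA and 66.6, 66.1 and 65.5 CPM with TAZ-siRNA, without overlap (log2 fold change 0.49 ± 0.049 (SE, n = 3), adjusted p = 1.8e-04 by edgeR). Its neighbour on chromosome 4, HERC6, rose by 0.31 (adjusted p = 0.0072), UBE2L6, the conjugating enzyme, by 0.26 (adjusted p = 0.012), and USP18, the protease that removes ISG15 and restrains IFNAR2 signalling, by 0.23 (adjusted p = 0.035 by edgeR). UBE2L6 was not past the threshold without control-siRNA replicate 1 or 2 (adjusted p from 0.059 to 0.067 by edgeR). USP18 was not past the threshold without control-siRNA replicate 1, 2 or 3 or TAZ-siRNA replicate 1 or 2 (adjusted p from 0.066 to 0.13 by edgeR). Without TAZ-siRNA replicate 3, the log2 fold change of ISG15 was -0.013.

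Of the 8 IFI and apoptosis-linked genes, 5 were higher and 0 lower. IFI44L was at 5.59, 6.77 and 6.77 CPM with control-siRNA and 12.6, 12.1 and 12.8 CPM with TAZ-siRNA. The TAZ-siRNA libraries were close together and all above the control-siRNA libraries (log2 fold change 0.98 ± 0.094 (SE, n = 3), adjusted p = 1.6e-04 by edgeR). Its neighbour IFI44 on chromosome 1, far more abundant at 139.9, 143 and 144 CPM with control-siRNA and 179.7, 171 and 193 CPM with TAZ-siRNA, rose as well (log2 fold change 0.35 ± 0.053 (SE, n = 3), adjusted p = 0.0015 by edgeR). IFI27, a mitochondrial and nuclear envelope protein gene, was at 1.69, 1.67 and 2.43 CPM with control-siRNA and 3.33, 3.00 and 3.44 CPM with TAZ-siRNA. Control-siRNA replicate 3 lay nearest to the TAZ-siRNA libraries but did not reach them (log2 fold change 0.76 ± 0.17 (SE, n = 3), adjusted p = 0.0099), and it was not past the threshold without control-siRNA replicate 2 (adjusted p = 0.053 by edgeR). IFI6, which encodes a membrane protein that restrains apoptosis, was at 17.8, 16.7 and 17.4 CPM with control-siRNA and 23.4, 21.7 and 23.5 CPM with TAZ-siRNA, and rose without overlap (log2 fold change 0.40 ± 0.064 (SE, n = 3), adjusted p = 0.0019 by edgeR). EPSTI1 rose by 0.29 (adjusted p = 0.031), but it was not past the threshold without control-siRNA replicate 1, 2 or 3 or TAZ-siRNA replicate 2 (adjusted p from 0.055 to 0.11 by edgeR). IFI35 and IFI16, a nuclear DNA sensor gene, overlapped between the groups, at 0.034 (adjusted p = 0.78) and -0.068 (adjusted p = 0.56 by edgeR). XAF1, a pro-apoptotic gene, had a mean of only 0.285 CPM with control-siRNA, and its log2 difference of 0.33 (adjusted p = 0.58 by edgeR) was not detectable as a difference at that depth. IFI16 passed the threshold without TAZ-siRNA replicate 3 (log2 fold change -0.15, adjusted p = 0.041 by edgeR).

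SAMD9 and SAMD9L, neighbours on chromosome 7 that encode cytoplasmic inhibitors of poxvirus replication, both rose, by 0.25 (adjusted p = 0.0088) and 0.42 (adjusted p = 0.022 by edgeR). SAMD9 was not past the threshold without control-siRNA replicate 3 (adjusted p = 0.054 by edgeR). SAMD9L was not past the threshold without control-siRNA replicate 1 or 3 or TAZ-siRNA replicate 1 or 2 (adjusted p from 0.062 to 0.092 by edgeR). The helicase gene DDX60 overlapped between the groups at 0.087 (adjusted p = 0.33), and DDX60L lay above without overlap at 0.26 (adjusted p = 0.073 by edgeR), short of the threshold. DDX60 passed the threshold without TAZ-siRNA replicate 3 (log2 fold change 0.15, adjusted p = 0.015), as did DDX60L (adjusted p = 0.0063 by edgeR).

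Of the ADP-ribosyltransferase group, 3 of 4 were higher. PARP14 was at 63.9, 61.0 and 56.2 CPM with control-siRNA and 90.3, 87.4 and 78.4 CPM with TAZ-siRNA, without overlap (log2 fold change 0.50 ± 0.067 (SE, n = 3), adjusted p = 7.3e-04 by edgeR). PARP9 was at 16.3, 16.8 and 18.2 CPM with control-siRNA and 23.6, 25.2 and 21.7 CPM with TAZ-siRNA, also without overlap (log2 fold change 0.46 ± 0.075 (SE, n = 3), adjusted p = 0.0022 by edgeR). DTX3L, the ubiquitin ligase that forms a complex with PARP9, was at 86.9, 77.8 and 79.6 CPM with control-siRNA and 92.8, 90.0 and 77.4 CPM with TAZ-siRNA, with overlap (log2 fold change 0.091 ± 0.072 (SE, n = 3), adjusted p = 0.40 by edgeR). PARP9 (chr3:122527924-122564784) and DTX3L (chr3:122564338-122575203) overlap at their starts, and whether the counting used strand is not stated, so reads from the shared bases cannot be assigned with certainty. PARP12 rose by 0.21 (adjusted p = 0.023 by edgeR). PARP12 was not past the threshold without control-siRNA replicate 1 or 2 or TAZ-siRNA replicate 1 or 2 (adjusted p from 0.052 to 0.098 by edgeR). DTX3L passed the threshold without TAZ-siRNA replicate 3 (log2 fold change 0.17, adjusted p = 0.019 by edgeR).

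None of the TRIM ubiquitin ligase genes or SP100 was higher. TRIM25, the ligase that activates RIG-I, was at 179, 191 and 194 CPM with control-siRNA and 158, 149 and 164 CPM with TAZ-siRNA. All 3 TAZ-siRNA libraries lay below the control-siRNA libraries (log2 fold change -0.26 ± 0.055 (SE, n = 3), adjusted p = 0.0073), and it lay just above the threshold without control-siRNA replicate 2 (adjusted p = 0.050 by edgeR). SP100, a nuclear body gene, was at 115, 109.8 and 113 CPM with control-siRNA and 103, 103 and 106 CPM with TAZ-siRNA, also lower without overlap but short of the threshold (log2 fold change -0.11 ± 0.045 (SE, n = 3), adjusted p = 0.095 by edgeR). TRIM21, an antibody receptor in the cytosol, lay above without overlap at 0.14 (adjusted p = 0.10 by edgeR), and TRIM22 was barely detected at 0.345 CPM with control-siRNA. SP100 passed the threshold without TAZ-siRNA replicate 3 (log2 fold change -0.13, adjusted p = 0.032 by edgeR).

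Among the transcription factor genes, the DNA-binding subunit of ISGF3 was the one that rose. IRF9 was at 38.4, 37.7 and 40.3 CPM with control-siRNA and 52.5, 55.7 and 53.5 CPM with TAZ-siRNA. Its groups were well apart (log2 fold change 0.47 ± 0.054 (SE, n = 3), adjusted p = 3.3e-04 by edgeR). STAT2, its partner, was at 41.1, 44.8 and 40.6 CPM with control-siRNA and 44.9, 47.7 and 43.0 CPM with TAZ-siRNA, and the groups overlapped (log2 fold change 0.10 ± 0.062 (SE, n = 3), adjusted p = 0.28 by edgeR). IRF1, an early regulator that acts without ISGF3, was at 41.2, 40.6 and 41.8 CPM with control-siRNA and 42.7, 44.9 and 41.4 CPM with TAZ-siRNA. Its groups overlapped as well (log2 fold change 0.061 ± 0.054 (SE, n = 3), adjusted p = 0.46 by edgeR). The spread of STAT2 over its 3 control-siRNA libraries was larger than that of IRF1, with SDs of 2.25 and 0.597 CPM.

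All 3 GBP genes, whose GTPase products coat intracellular bacteria and parasites, were higher. GBP1 was at 62.8, 58.6 and 61.7 CPM with control-siRNA and 77.6, 80.8 and 71.2 CPM with TAZ-siRNA. GBP2 was at 98.4, 101 and 99.4 CPM with control-siRNA and 118, 122 and 116 CPM with TAZ-siRNA. GBP3 was at 55.7, 55.7 and 54.3 CPM with control-siRNA and 71.5, 70.7 and 64.3 CPM with TAZ-siRNA. None overlapped between the groups, and TAZ-siRNA replicate 3 was the lowest of its group for each gene. The log2 fold changes were 0.33 (adjusted p = 0.0034), 0.25 (adjusted p = 0.0033) and 0.32 (adjusted p = 0.0029 by edgeR) in the same order. The coding sequences of GBP1 and GBP3 are 91.6% identical, so the division of reads between them is uncertain, whereas GBP2 is 82.4% identical to GBP1.

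The other genes of the pathway were taken from lists of 66 genes, of which 42 could be tested, 13 were higher and 2 lower. Among all genes tested, 11.9% were higher and 10.2% lower, the shares to set beside these counts and those of each list below. The interferons themselves were nearly silent: 18 of 21 ligand genes, among them IFNB1, IFNG and all IFNA genes listed, had 0 counts in all 6 libraries. IFNL1, a type III interferon, was the single ligand gene tested, with 24, 36 and 28 counts with control-siRNA and 61, 45 and 54 with TAZ-siRNA. Its counts did not overlap and the test passed (log2 fold change 0.85 ± 0.25 (SE, n = 3), adjusted p = 0.036), but it did not pass with any single library left out (adjusted p from 0.051 to 0.12 by edgeR) or with all 6 by DESeq2 (adjusted p = 0.056). A count of 0 allows up to 3 counts in a library, so ligand RNA below that level was not detectable, and protein was not measured.

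Of the 6 receptor chains, 4 were higher: IFNLR1 by 0.47 (adjusted p = 0.0036), IFNAR2 by 0.27 (adjusted p = 0.016), IFNAR1 by 0.19 (adjusted p = 0.027) and IL10RB, the chain shared by type III interferon and interleukin-10, by 0.19 (adjusted p = 0.032 by edgeR). The interferon-gamma receptor genes were at -0.020 (adjusted p = 0.80) for IFNGR1 and 0.056 (adjusted p = 0.49 by edgeR) for IFNGR2. IFNAR1 was not past the threshold without control-siRNA replicate 1, 2 or 3 or TAZ-siRNA replicate 1 or 2 (adjusted p from 0.063 to 0.12 by edgeR). IFNAR2 was not past the threshold without control-siRNA replicate 1 or 2 or TAZ-siRNA replicate 1 (adjusted p from 0.058 to 0.081 by edgeR). IL10RB was not past the threshold without control-siRNA replicate 1 or 2 or TAZ-siRNA replicate 1 or 2 (adjusted p from 0.064 to 0.13 by edgeR). Below the receptors, JAK1 fell by 0.14 on the log2 scale (adjusted p = 0.049 by edgeR). JAK1 was not past the threshold without control-siRNA replicate 1, 2 or 3 or TAZ-siRNA replicate 1 or 2 (adjusted p from 0.089 to 0.17 by edgeR).

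None of the 4 other IRF genes tested passed, with IRF7, the amplifier of interferon production, at -0.075 (adjusted p = 0.49) and IRF3 at 0.17 (adjusted p = 0.061 by edgeR). Of 6 inhibitor genes, SOCS1, which blocks JAK kinases, rose by 0.79 (adjusted p = 0.031) from 0.508 CPM, and PTPN2, a phosphatase that acts on JAK1, fell by 0.24 on the log2 scale (adjusted p = 0.0081 by edgeR). SOCS1 was not past the threshold without control-siRNA replicate 1, 2 or 3 or TAZ-siRNA replicate 1 (adjusted p from 0.052 to 0.12 by edgeR). With all 6 libraries its adjusted p by DESeq2 was 0.068.

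Of the 13 nucleic acid sensing genes tested, 6 were higher and 0 lower. They were ZC3HAV1, which encodes the zinc finger antiviral protein, at 0.64 (adjusted p = 1.1e-04), and the RNA sensor genes IFIH1 at 0.50 (adjusted p = 2.5e-04) and RIGI, listed under its older symbol DDX58, at 0.35 (adjusted p = 0.0040 by edgeR). The DNA sensor gene CGAS, the adaptor gene MAVS and the kinase gene TBK1 followed at 0.21 (adjusted p = 0.021), 0.26 (adjusted p = 0.024) and 0.27 (adjusted p = 0.0049 by edgeR). CGAS was not past the threshold without control-siRNA replicate 1, 2 or 3 or TAZ-siRNA replicate 1 (adjusted p from 0.058 to 0.088 by edgeR). MAVS was not past the threshold without control-siRNA replicate 1, 2 or 3 or TAZ-siRNA replicate 1 or 2 (adjusted p from 0.065 to 0.11 by edgeR). Of 7 tested genes that are strongly driven by interferon-gamma, APOL1, a trypanolytic factor gene, was the one that passed (log2 fold change 0.74 ± 0.074 (SE, n = 3), adjusted p = 1.9e-04 by edgeR), and the median log2 fold change was 0.50. The others were GBP4 at 0.77 (adjusted p = 0.13), CIITA at 0.68 (adjusted p = 0.21), GBP5 at 0.50 (adjusted p = 0.13), WARS1 at -0.11 (adjusted p = 0.62), CXCL11 at -0.41 (adjusted p = 0.41) and CXCL10 at -0.70 (adjusted p = 0.16 by edgeR).

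The members with the largest changes were among the less abundant ones. Per length, mean control-siRNA levels of the members ran from 0.155 TPM (XAF1) to 1131 TPM (IFITM3), with a median of 29.8 TPM. Of the 11 members under 10 TPM, 8 were higher and the median log2 fold change was 0.51. Of 13 members between 10 and 30 TPM 8 were higher (median 0.23), and of 18 between 30 and 100 TPM 9 were higher and 1 lower (median 0.19). The 6 members at 100 TPM or more were IFIT2, IFIT3, IFI44, ISG15, IFITM2 and IFITM3, of which 3 were higher and 1 lower, with a median of 0.19. The share of all genes called within each of these ranges of level was not computed. Spearman's rho between control-siRNA level and log2 fold change was -0.43 across the 48 members and -0.15 across all 16966 genes, a description across genes that share the same libraries and are not independent replicates. The control-siRNA libraries enter both axes.

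**Figure D5:**
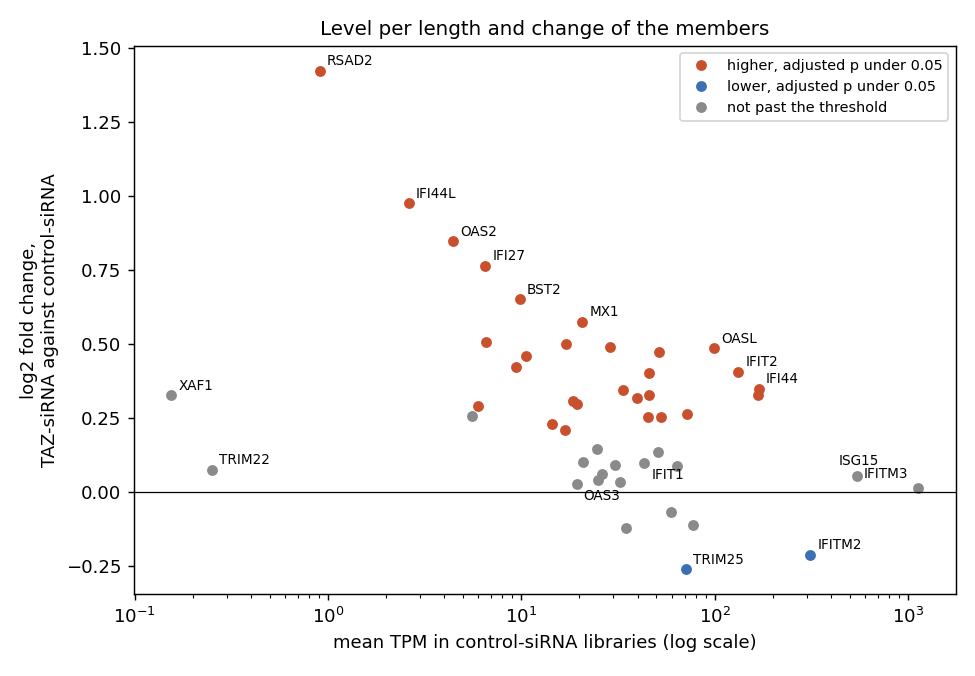
Mean TPM in the 3 control-siRNA libraries (horizontal, log scale) against the log2 fold change of TAZ-siRNA over control-siRNA (vertical) for the 48 members tested, one point each. The largest changes (RSAD2, IFI44L, OAS2, IFI27 and BST2) belong to members under 10 TPM, while ISG15 and IFITM3, the most abundant, lie close to 0.

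Members that lie next to each other in the genome did not always share a call. Taking genes within 500000 bases of each other as a cluster, 28 members formed 11 clusters. In 5 of them, IFI44L with IFI44, the GBP genes, MX1 with MX2, HERC5 with HERC6, and SAMD9 with SAMD9L, every member was higher. In the IFIT, OAS and PARP9 clusters some members rose and others did not pass (2 of 4, 2 of 3 and 2 of 3 higher). Neither DDX60 gene passed, RSAD2 rose beside CMPK2 at 0, and in the IFITM cluster (chr11:308107-320860) 0 were higher and 1 was lower.

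The transcript estimates showed which models carried some of these rises, and they were not tested. Both abundant OAS2 models were higher: the shorter one was at 2.46, 2.28 and 2.51 TPM with control-siRNA and 5.60, 4.89 and 4.84 TPM with TAZ-siRNA, and the longer one at 2.01, 2.08 and 1.83 TPM with control-siRNA and 3.58, 3.28 and 2.16 TPM with TAZ-siRNA. The groups did not overlap for either model. For IFI27 the 2 abundant models traded places between libraries, the first at 1.74, 1.71 and 5.62 TPM with control-siRNA and 5.66, 7.14 and 3.78 TPM with TAZ-siRNA and the second at 4.03, 3.92 and 2.08 TPM with control-siRNA and 5.32, 2.99 and 7.39 TPM with TAZ-siRNA. Each of these overlapped between the groups while the gene total did not. For RSAD2, IRF9 and BST2 a single model held all of the estimated expression.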

How the data were processed

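RNA-seq libraries of MDA-MB-231 cells with control-siRNA (3) or TAZ-siRNA (3) were grouped by their labels. Replicates 1 to 3 are numbered after the sample descriptions and column names; the titles number the same libraries 3 to 5. After trimming, the authors used HISAT2 (GRCh38) for mapping and StringTie with RefSeq models for quantification. The deposited estimated counts are whole numbers, so none was rounded. The authors scaled the deposited FPKM for length and library size, and the deposited TPM for length and then to a common total. Use of strand in the counting is not given in the sources used here. Columns without a sample numbered 0.

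Counts were tested with edgeR 4.0.16 (R 4.3.3) by the quasi-likelihood test, with TMM normalization, filterByExpr at a minimum count of 10 and Benjamini-Hochberg adjustment over 16966 genes. The threshold was an adjusted p of 0.05. The method was tested on simulated data. Alternatives were DESeq2 1.42.0, RLE and upper-quartile factors, other filters, a replicate block, limma 3.58.1 on log2(FPKM + 1), log2(FPKM + 0.1) and log2(TPM + 1), a threshold of 0.01, and leaving out each library. Log2 CPM for list averages used a prior count of 2. The p-values measure the spread between 3 cell preparations a group.

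The members, roles, timing classes, lists and tests were chosen with earlier results of these data known. Values are given for every library for the 12 called members with the largest absolute log2 fold change, the transcription factor genes, the GBP genes, ISG15 and members of near-identical or neighbouring families, and the other members are given by counts and ranges. Gene coordinates come from the deposited transcript table (GRCh38), identities of coding sequences from GENCODE transcripts aligned pairwise, and promoter sequences and their coordinates from RefSeq (GRCh38.p14). Floors cover counting error only, and some planned values are not reported here.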

Additional observations from a re-analysis of the deposited data

How the results depend on the processing

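The 28 members called higher stayed within 1.5 times that count under every alternative: 28 by DESeq2, 29 with a replicate block, 27 with no filter, 25 by limma on log2(FPKM + 1), 26 by limma on log2(TPM + 1) and 22 at an adjusted p under 0.01. The same-numbered libraries did not deviate together (correlations -0.017, 0.0086 and 0.070), so the numbers were not taken as pairs, and the replicate block gave 5122 calls over all genes against 3749 and lost no call of a member while adding DDX60L and SP100. The members called lower numbered 1 by TPM, 1 at the stricter threshold and 0 to 4 with a library left out. All-gene calls numbered 1720 at the stricter threshold and 1937 to 5928 with a library left out. Other pathway genes called higher numbered 6 at the stricter threshold and 6 to 19 with a library left out. Those called lower numbered 1 with RLE factors, with no filter and at the stricter threshold, 0 with FPKM (either pseudocount) or TPM, and 1 to 4 with a library left out. The medians by limma on log2(FPKM + 1) were 0.25 for all members, 0.24 for type I effectors and 0.31 for late responders. On log2(TPM + 1), where the median of all genes was 0.035, they were 0.30, 0.30, 0.37 and, for GBP genes, 0.38. With a library left out the medians ran from 0.25 to 0.29 for all members and 0.25 to 0.29 for type I effectors. They ran from 0.064 to 0.15 for the transcription factor genes and 0.29 to 0.37 for GBP genes. The medians of early responders ran from 0.31 to 0.36 and those of late responders from 0.34 to 0.38. Early and late medians were 0.31 and 0.36 without TAZ-siRNA replicate 3, and 0.36 and 0.34 without control-siRNA replicate 3. A longer ISRE (the core followed by CT) was in 39.0% of member promoters and 0.271% of all promoters, against 63.4% and 3.65% for the core. With a library left out, log2 fold changes that turned, none of them past the threshold, were those of IFI35 (-0.021 to 0.078, below 0 without TAZ-siRNA replicate 3), IFITM3 (-0.029 to 0.056, below 0 without TAZ-siRNA replicate 3 or control-siRNA replicate 1 or control-siRNA replicate 2), ISG15 (-0.013 to 0.11, below 0 without TAZ-siRNA replicate 3), OAS3 (-0.040 to 0.12, below 0 without TAZ-siRNA replicate 2) and TRIM22 (-0.23 to 0.33, below 0 without TAZ-siRNA replicate 2 or control-siRNA replicate 1). The cause of these differences was not tested. Of the called members, USP18, SAMD9L, PARP12 and IFITM2 also lost their call under at least 1 unit or filter. Of the called pathway genes, IFNAR1, IFNAR2, PTPN2, MAVS and JAK1 lost theirs by limma on FPKM and TPM, JAK1 also with RLE factors and with no filter, and IFNL1 and SOCS1 by DESeq2. XAF1 and TRIM22, with means of 0.285 and 0.345 CPM with control-siRNA, are the members that depth limits most.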

Other observations

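The transcript estimates given here add to the gene-level results above, and they were not tested. Of the 49 members, XAF1 (21 transcript models), DDX60L (21) and TRIM22 (2) had no model above 1 TPM on average, and CMPK2 had 6 models, all at 0. The single abundant OAS1 model (NM_016816) was at 18.2, 17.1 and 16.3 TPM with control-siRNA and 22.7, 27.6 and 20.4 TPM with TAZ-siRNA, without overlap. The 2 main IFI6 models were at 35.6, 34.1 and 32.1 TPM with control-siRNA and 47.9, 35.2 and 44.5 TPM with TAZ-siRNA for NM_002038 and at 11.2, 8.97 and 10.9 TPM with control-siRNA and 14.4, 23.4 and 15.6 TPM with TAZ-siRNA for NM_022872. The groups overlapped for NM_002038 and did not for NM_022872.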
